A study of Mus musculus with 2 samples.

Results

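The 10 genes described here encode the surfactant proteins of the lung and the proteins that mature, package and recycle surfactant in alveolar type 2 (AT2) cells. They are Sftpc, Sftpb, Sftpa1 and Sftpd (surfactant proteins), Napsa and Ctsh (processing proteases), Abca3 and Lamp3 (lamellar body membrane proteins), and Lpcat1 and Slc34a2 (lipid remodelling and phosphate transport). They were taken by symbol from the 2 expression tables, and all 10 were listed in both tables, out of 15113 genes listed in either. Expression was measured by RNA sequencing of sorted mouse lung epithelial cells, 1 library per group, in a study of the lung before metastases form. Mice of the tumour-bearing group carried a graft under the skin of the back, begun with 1000000 cells of LLC, a Lewis lung carcinoma line that spreads to the lung and was labelled here with luciferase. The normal group had wild-type mice that bore no tumour. Animals of both groups were C57BL/6 mice of 6 to 8 weeks, and sorted cells lacked the leukocyte protein CD45 and were positive for Sftpc. The sources used here do not give the time after injection, the number of mice behind each library or the way Sftpc was detected.

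Surfactant is a film of phospholipid and protein that lowers surface tension in the air spaces and keeps alveoli open. AT2 cells cut the precursors of the hydrophobic proteins SP-B and SP-C, pack them with phospholipid into lysosome-related organelles called lamellar bodies, and release these into the air space. The collectins SP-A and SP-D are secreted as well, bind microbes and take part in surfactant turnover.

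Values are RPKM, in which the reads of a gene are divided by its length and by library size, and therefore allow levels of different genes to be compared within a library. The library totals used for RPKM, recovered from its digits, were 5387114 reads in the tumour-bearing library and 5335352 reads in the normal library. Genes listed numbered 14283 and 13932 in the same order. Reads recovered for these genes came to 99.998% and 99.997% of the totals, so totals and shares of reads here are of gene-assigned reads. Single libraries allow no replicate check, so differences carry no p-value. A 2-fold size rule on log2((tumour-bearing RPKM + 1)/(normal RPKM + 1)) stands in for a test. Intervals are 95% intervals of the ratio of reads per library total, which treat each read as independent and cover counting error only. The RNA was amplified by PCR, so the intervals may be too narrow even for counting error. In bulk RNA, fewer AT2 cells and less RNA per AT2 cell cannot be told apart.

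The sort could be checked against markers of AT2 and other lung cells. The other 14 AT2 markers summed to 28279 RPKM in the tumour-bearing library and 45419 RPKM in the normal library, and all 14 were read in both. Their median log2 ratio was -0.54, with 3 of 14 below the 2-fold line and 0 above it. AT1 markers summed to 3062 and 1877 RPKM in the tumour-bearing and normal library, club cell markers to 37324 and 32244 RPKM, fibroblast markers to 853 and 148 RPKM, and endothelial markers to 138 and 34.1 RPKM. Median log2 ratios were 1.09 for the 12 AT1 markers and 3.91 for the 9 fibroblast markers at 1 RPKM or more, with 0 below 0 in both lists. For the 10 endothelial markers the median was 1.78, with 2 below 0. Col6a1 made 121 RPKM of the fibroblast sum in the normal library. The 9 macrophage markers summed to 50.5 RPKM in the tumour-bearing library, with Adgre1, Chil3, Marco and Mrc1 listed in no row, and to 14.99 RPKM in the normal library, with Adgre1, C1qb, C1qc, Marco and Mrc1 listed in no row. Of the 6 macrophage markers at 1 RPKM or more, 5 were above 0 and 1 below, with a median log2 ratio of 1.41. Markers of cells other than AT2 cells were therefore read in both libraries, at unequal levels. The club cell sum was carried by Scgb1a1, at 35116 RPKM in the tumour-bearing library and 30142 RPKM in the normal library, while the median log2 ratio of the 8 club markers was -0.55. Of those 8, 2 (Retnla and Scgb3a1) lay past the upper 2-fold line and 3 past the lower one. The 6 pan-leukocyte markers, whose cells the CD45-negative sort should remove, summed to 52.0 RPKM in the tumour-bearing library and 85.5 RPKM in the normal library. Most of that sum was Lcp1, with 1085 reads in the tumour-bearing library and 1767 in the normal library, while Ptprc, which encodes CD45, had 2 and 12 reads and Cd52 was listed in neither table.

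The 10 genes did not share a direction. Ctsh and Sftpd were at least 2-fold higher in the tumour-bearing library, none was at least 2-fold lower, and 8 lay within 2-fold, although Lamp3, with the lowest ratio, and Sftpc were 1.957-fold and 1.73-fold lower. Under trimmed-mean, upper-quartile and same-sum scaling and centring on all genes, 1 gene (Ctsh) was at least 2-fold higher and 1 (Lamp3) at least 2-fold lower. The median log2 ratio of the 10 genes was -0.08, with 5 genes above 0, among them Sftpa1 by less than the last digit printed here, and 5 below, against a median of 0.06 over all 12288 genes that reached 1 RPKM in either library. Among those 12288 genes 9.38% lay at or above the upper 2-fold line, 6.53% at or below the lower one, and 15.9% past either. Since all 10 genes are abundant, the 649 genes that reached 100 RPKM in either library are a closer comparison. Of these, 10.3% lay past the upper line, 6.63% past the lower one and 16.9% past either, and their median was 0.11. Counts of 2 and 0 among 10 genes are too small to set them apart from either background. When log2 ratios were instead centred on the other AT2 markers, 3002 of the 12288 genes lay past the upper line and 231 past the lower one, against 1153 and 802 without centring.

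**Figure D1:**
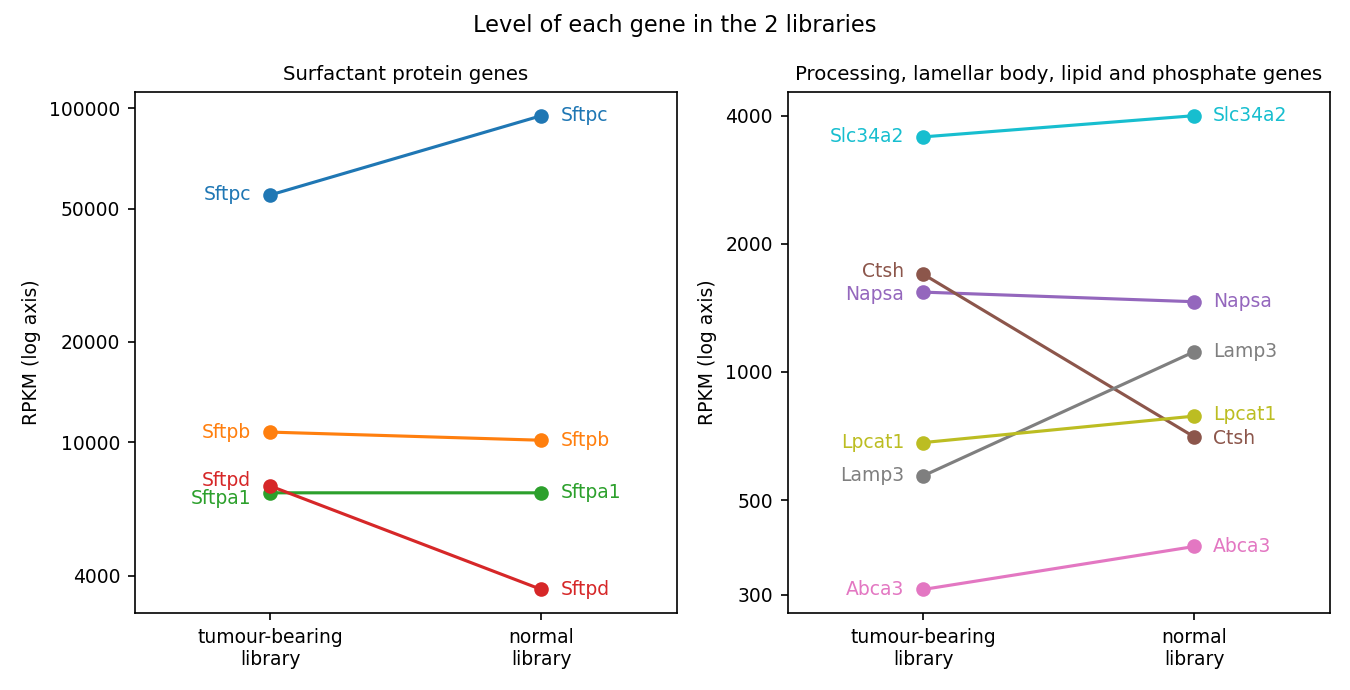
RPKM of each of the 10 genes in the tumour-bearing and the normal library, on log axes of different range for the surfactant protein genes and the other 6, with 1 point per library and a line joining the 2 values of a gene. Sftpc lies at 54968 and 94902 RPKM in the tumour-bearing and normal library, and the lines of Ctsh and Lamp3 cross.

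**Figure D2:**
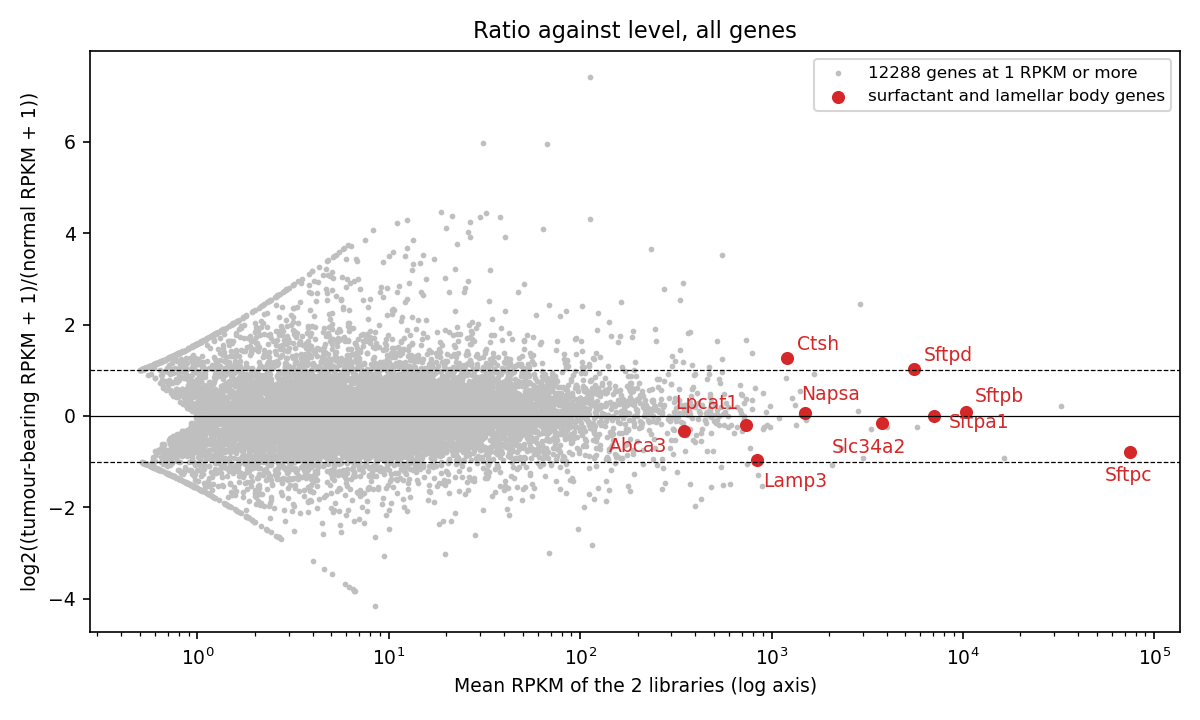
The log2 ratio of tumour-bearing over normal RPKM (1 added to each) against the mean RPKM on a log axis, for 12288 genes in grey and the 10 genes in red, with dashed lines at 2-fold. Ctsh and Sftpd lie above the upper line, and Lamp3 lies just inside the lower line.

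Sftpc (GeneID 20389, chromosome 14, 70520941 to 70524081 on mm10) encodes SP-C, a small lipopeptide made by AT2 cells, and was the most abundant gene of both libraries. It had 54968 RPKM (238080 reads) in the tumour-bearing library and 94902 RPKM (407096 reads) in the normal library, a log2 ratio of -0.79, or 1.73-fold lower with an interval of 1.72 to 1.74. Cells were sorted as Sftpc-positive, so its high level in both libraries is part of the gate and not a finding. Sftpb (GeneID 20388, chromosome 6, 72304610 to 72314373) encodes SP-B, without which lamellar bodies do not form normally and newborn mice cannot breathe. It stood 4th in both libraries, at 10740 RPKM in the tumour-bearing library and 10154 RPKM in the normal library, 1.06-fold apart (1.05 to 1.07). The ratio of Sftpc to Sftpb within a library, which no scaling between libraries can alter, was 5.12 in the tumour-bearing library and 9.35 in the normal library.

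The 2 collectin genes, Sftpa1 (GeneID 20387, chromosome 14, 41131788 to 41136373 on mm10) and Sftpd (GeneID 20390, 41172212 to 41185198), lie 35838 bases apart and had unlike ratios. Sftpa1, which encodes SP-A, was at 7070 RPKM in the tumour-bearing library and 7069 RPKM in the normal library, a ratio of 1.00 with an interval of 0.992 to 1.01. Sftpd, which encodes SP-D, was at 7410 RPKM (52933 reads) in the tumour-bearing library and 3633 RPKM (25705 reads) in the normal library, 2.04-fold higher (2.01 to 2.07). That call was lost under 4 of 9 alternative settings, all of them scalings or centrings. The ratio of Sftpd to Sftpa1 was 1.05 and 0.514 in the tumour-bearing and normal library, so SP-D transcripts were level with SP-A transcripts in the first and well under them in the second. Between these genes lies Mbl1, which encodes another collectin, a mannose-binding lectin. It had 13 reads in the tumour-bearing library and 10 in the normal library, and Gm7920, an annotated pseudogene in the same interval, was listed in neither table. Sftpd ranked 5th in the tumour-bearing library and 10th in the normal library by RPKM. Club cells also make SP-A, SP-B and SP-D, and their markers summed to 37324 and 32244 RPKM in the tumour-bearing and normal library. Scgb1a1 carried that sum, while the median log2 ratio of the 8 club markers was -0.55. That list was split, with 2 past the upper 2-fold line (Retnla and Scgb3a1) and 3 past the lower one. The part of club cells in the collectin values was not tested.

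The 4 surfactant protein genes together made 16.3% of the summed RPKM in the tumour-bearing library and 22.6% in the normal library. The sign of this difference turned without Sftpc: the other 3 made 5.14% in the tumour-bearing library and 4.08% in the normal library and were 1.21-fold higher in sum, opposite in direction to the sum with Sftpc. As shares of gene-assigned reads, all 10 genes took 11.9% of the tumour-bearing library and 14.7% of the normal library. The 9 genes other than Sftpc took 7.47% of the tumour-bearing library and 7.11% of the normal library.

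**Figure D3:**
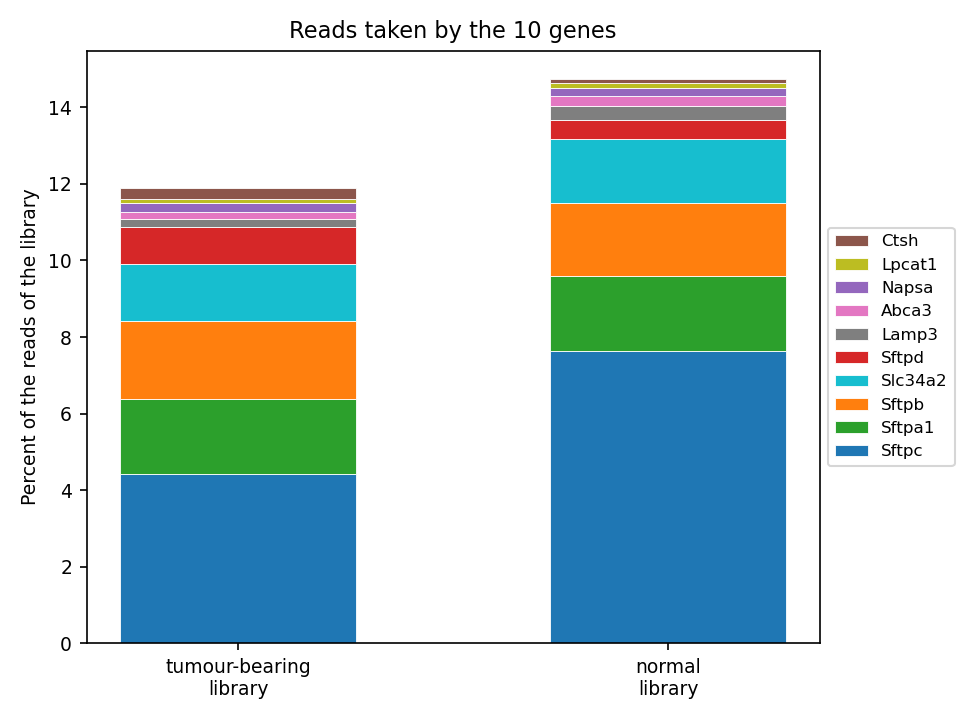
Percent of the gene-assigned reads of the tumour-bearing and the normal library that fell to each of the 10 genes, stacked. Sftpc takes 4.42% in the tumour-bearing and 7.63% in the normal library, and the bars as a whole reach 11.9% and 14.7%. Reads are not scaled to gene length, so segments compare a gene between libraries and not genes with each other.

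Upstream sequence of 6 of the 10 genes was found in the RefSeq promoter table of GRCm38.p6, the assembly that mm10 denotes. The 250 bases before the start of Sftpb and Sftpa1, the surfactant protein genes found there, and of Lamp3, the gene with the lowest ratio, are printed as examples of genes with near-equal values and with the lowest ratio. Capitals mark matches on either strand to CAAG, the core of sites bound by Nkx2-1, to TGTTT followed by any base and then C, a form of the core bound by Foxa factors, and to TATAAA, known as the TATA box. The stretches are chr6:72304360-72304609 on the plus strand for Sftpb, chr14:41131538-41131787 on the plus strand for Sftpa1, and chr16:19706366-19706615 on the minus strand for Lamp3.
Sftpb: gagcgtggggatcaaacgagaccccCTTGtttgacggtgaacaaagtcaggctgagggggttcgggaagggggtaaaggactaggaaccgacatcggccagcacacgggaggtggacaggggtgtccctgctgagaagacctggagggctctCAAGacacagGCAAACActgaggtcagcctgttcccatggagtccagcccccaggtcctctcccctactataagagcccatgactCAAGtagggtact
Sftpa1: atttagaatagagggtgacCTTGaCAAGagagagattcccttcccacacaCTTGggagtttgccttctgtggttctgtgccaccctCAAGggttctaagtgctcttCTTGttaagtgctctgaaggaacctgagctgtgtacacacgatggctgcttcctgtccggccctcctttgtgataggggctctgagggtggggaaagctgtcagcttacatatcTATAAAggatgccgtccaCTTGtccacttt
Lamp3: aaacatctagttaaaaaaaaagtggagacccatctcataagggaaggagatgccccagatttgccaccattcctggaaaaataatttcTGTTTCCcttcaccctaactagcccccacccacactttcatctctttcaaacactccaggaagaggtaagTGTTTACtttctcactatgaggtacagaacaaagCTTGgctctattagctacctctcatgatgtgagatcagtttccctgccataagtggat

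Sftpa1 held 6 matches to CAAG, Sftpb 3 and Lamp3 1, where the median over 27025 promoters of the same length was 2 and 86.7% held at least 1. Of the genes found but not printed, Abca3 held 2 matches to CAAG, and Lpcat1 and Slc34a2 held 0. Abca3, Lpcat1 and Slc34a2 also held no match to the Foxa core or to TATAAA. A match to the Foxa core occurred 1 time in Sftpb, from base 88 to base 82 before the start, and 2 times in Lamp3, and 17.9% of all promoters held such a match. TATAAA was found in Sftpa1, 30 to 25 bases before the start, and in 13.0% of all promoters. A pair of the CAAG matches in Sftpa1 stood close together, beginning 231 and 226 bases before the start. The matched motifs do not overlap each other in the 3 printed stretches. A match is a run of letters and not a shown binding site, and no binding was measured in these samples.

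The processing proteases also differed from each other. Napsa (GeneID 16541, chromosome 7, 44572445 to 44586846) encodes napsin A, an aspartic protease that cuts the SP-B precursor, and Ctsh (GeneID 13036, chromosome 9, 90054267 to 90076095) encodes cathepsin H, a cysteine protease that cuts the SP-B and SP-C precursors. Napsa was at 1540 RPKM in the tumour-bearing library and 1462 RPKM in the normal library, 1.05-fold apart (1.03 to 1.08). Ctsh was at 1697 RPKM (14878 reads) in the tumour-bearing library and 704 RPKM (6109 reads) in the normal library, 2.41-fold higher (2.34 to 2.49), the highest ratio of the 10. By RPKM it ranked 16th in the tumour-bearing library and 49th in the normal library, and the ratio of Ctsh to Napsa was 1.10 in the tumour-bearing library and 0.481 in the normal library. Among the 649 abundant genes 43 had a higher log2 ratio than Ctsh and 605 a lower one, and for Sftpd these numbers were 66 and 582. Macrophages also make cathepsin H. Their markers summed to 50.5 and 14.99 RPKM in the tumour-bearing and normal library, with Adgre1, Marco and Mrc1 listed in neither. Of the 6 that reached 1 RPKM, 5 were above 0, among them Cd68 at 171 and 42 reads. Chil3, at 0 and 19 reads, was below 0. The sort was for CD45-negative cells. Pan-leukocyte markers summed to 52.0 and 85.5 RPKM in the tumour-bearing and normal library. Lcp1 made 50.3 and 82.7 RPKM of this, so those sums follow 1 gene. The part of macrophages or other leukocytes in the Ctsh values was not tested.

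The lamellar body membrane genes were both below 0. Abca3 (GeneID 27410, chromosome 17, 24351921 to 24410204) encodes the transporter that moves phospholipid into lamellar bodies. It was at 308 RPKM in the tumour-bearing library and 389 RPKM in the normal library, 1.26-fold lower (1.23 to 1.29). Lamp3 (GeneID 239739, chromosome 16, 19653381 to 19706365) encodes a lysosome-associated protein of the lamellar body membrane, in humans also known from mature dendritic cells. It was at 570 RPKM (10264 reads) in the tumour-bearing library and 1116 RPKM (19897 reads) in the normal library, 1.957-fold lower (1.91 to 2.005), with a log2 ratio of -0.97. Lamp3 ranked 72nd in the tumour-bearing library and 24th in the normal library, while Abca3 ranked 179th in the tumour-bearing library and 118th in the normal library. The ratio of Lamp3 to Abca3 was 1.85 and 2.87 in the tumour-bearing and normal library, so the 2 membrane genes were not lower in proportion. Among the 649 abundant genes 45 had a lower log2 ratio than Lamp3.

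Lpcat1 (GeneID 210992, chromosome 13, 73467231 to 73516420), whose enzyme remakes phosphatidylcholine into the saturated form rich in surfactant, was at 682 RPKM in the tumour-bearing library and 787 RPKM in the normal library, 1.15-fold lower (1.11 to 1.20). Slc34a2 (GeneID 20531, chromosome 5, 53049353 to 53071664), the sodium-phosphate transporter that takes up phosphate from the air space, was at 3565 RPKM in the tumour-bearing library and 3998 RPKM in the normal library, 1.12-fold lower (1.11 to 1.13). The pair kept nearly the same proportion, with Slc34a2 at 5.22 times Lpcat1 in the tumour-bearing library and 5.08 times in the normal library.

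Ratios of one of these genes to another within a library bypass scaling. They are formed from the same RPKM values as the log2 ratios above, so they add no separate evidence. A gene whose log2 ratio lies far from the rest enters many of the pairs that differ. Of the 45 pairs 16 had a ratio that differed at least 2-fold between the libraries, and Ctsh was in 8 of these and Sftpd in 6. Among the 28 pairs of the other 8 genes the number was 2, and both held Lamp3, set against Sftpb and Napsa. Lamp3 over Sftpb was 0.0531 in the tumour-bearing library and 0.110 in the normal library. The widest difference was that of Ctsh over Lamp3, at 2.98 in the tumour-bearing library and 0.631 in the normal library, a 4.72-fold difference. The narrowest was that of Napsa over Sftpb, at 0.143 and 0.144 in the tumour-bearing and normal library. Pairs of other genes were not counted, so 16 of 45 cannot be set against a background.

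Scaling between the libraries decided the calls nearest the 2-fold line. Ctsh was at least 2-fold higher under all 9 alternatives. Sftpd was so under 5 of 9, with log2 ratios from 0.92 to 1.56, and Lamp3 was at least 2-fold lower under 4 of 9, with log2 ratios from -1.07 to -0.43. Pseudocounts were among the 9 and moved none of these calls, but could hardly have done so at such high RPKM. Among scalings and centrings, Sftpd stayed past its line only when scaled to a fixed RPKM sum (1.09) or centred on the other AT2 markers (1.56). Under all the other scalings and centrings Lamp3 was past the lower line. Sftpc kept its direction under all 9, between -0.89 and -0.25. For the other 6 genes the direction depended on the setting: Sftpb and Napsa turned to -0.02 and -0.03 under upper-quartile scaling, Sftpa1 was below 0 under 4 of 9, and Abca3, Lpcat1 and Slc34a2 turned to 0.20, 0.33 and 0.37 when ratios were centred on the other AT2 markers. Relative to those markers, whose median was -0.54, all 10 genes except Sftpc and Lamp3 were above 0.

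**Figure D4:**
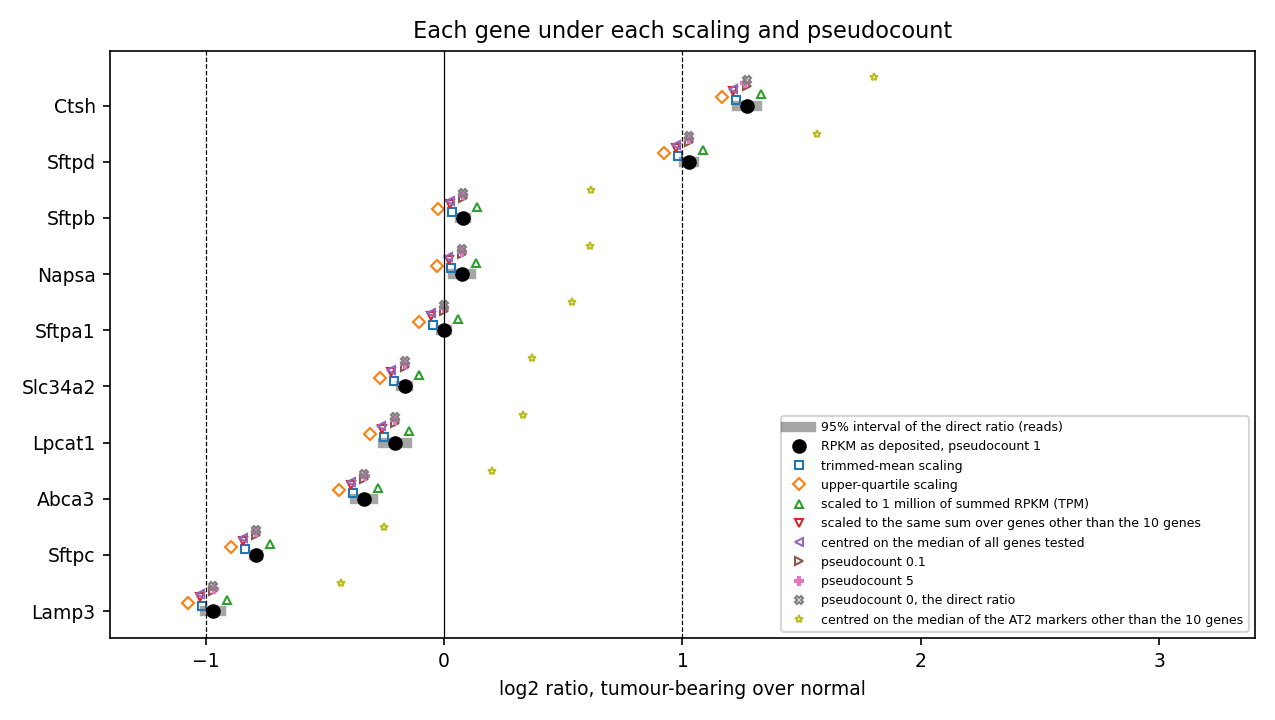
The log2 ratio of tumour-bearing over normal for each of the 10 genes, ordered by value, as deposited (black) and under 9 alternatives of scaling or pseudocount (coloured marks), with grey bars for the counting interval. Dashed lines mark 2-fold, with Ctsh above the upper line throughout and Sftpd and Lamp3 on either side of a line.

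Other genes of the surfactant pathway were read from lists drawn up with earlier results of these data known. Among all 12288 genes 9.38% lay past the upper 2-fold line and 6.53% past the lower one. Counts in these lists are too small to be set apart from those shares. Of 22 genes of processing and lamellar body trafficking, 20 reached 1 RPKM in either library, with a median log2 ratio of 0.16, 0 past the upper 2-fold line and 1 past the lower one. That gene was Pgc, pepsinogen C, a protease that cuts the SP-B precursor in human AT2 cells, at 0.939 RPKM (7 reads) in the tumour-bearing library and 10.3 RPKM (76 reads) in the normal library, 10.96-fold lower (5.07 to 28.2). Of the proteases named here for the SP-B precursor, Ctsh was higher, Napsa level and Pgc lower in the tumour-bearing library. The Pgc ratio rests on far fewer reads, and its role is given for human cells. Atp8a1, a phospholipid flippase gene, was at 81.8 and 154 RPKM in the tumour-bearing and normal library, 1.88-fold lower (1.80 to 1.955). Rab38, which encodes a small GTPase needed for normal lamellar bodies, was at 10.2 and 18.7 RPKM in the tumour-bearing and normal library, 1.82-fold lower (1.39 to 2.40). Vamp8, a vesicle fusion gene, was the most abundant of the list, at 674 and 386 RPKM in the tumour-bearing and normal library, 1.74-fold higher (1.64 to 1.86).

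Of 22 genes of phospholipid supply and remodelling, 21 reached 1 RPKM, with a median of 0.16, 3 past the upper 2-fold line and 3 past the lower one. Prdx6, which encodes an enzyme that degrades phosphatidylcholine of internalised surfactant, was at 788 RPKM in the tumour-bearing library and 252 RPKM in the normal library, 3.13-fold higher (3.004 to 3.26). Pla2g15, a lysosomal phospholipase gene, was at 6.41 and 1.86 RPKM in the tumour-bearing and normal library, 3.45-fold higher (2.23 to 5.50). Abca1, a lipid exporter gene, was at 7.96 and 2.98 RPKM in the tumour-bearing and normal library, 2.67-fold higher (2.23 to 3.22). On the lower side, Pla2g1b, a secreted phospholipase gene, was at 51.8 and 171 RPKM in the tumour-bearing and normal library, 3.31-fold lower (2.76 to 3.99). Elovl1 and Fabp5, a fatty acid elongase and a fatty acid binding protein gene, both named after their values were seen, were each 2.09-fold lower. Elovl1 was at 480 RPKM in the tumour-bearing library and 1002 RPKM in the normal library, and Fabp5 at 138 and 287 RPKM in the same order. Scd1, which encodes a fatty acid desaturase, was the most abundant, at 2970 and 3628 RPKM in the tumour-bearing and normal library, 1.22-fold lower (1.21 to 1.23).

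The 12 genes of secretion, pool control and clearance had a median of 0.07, with 1 past the upper 2-fold line and 1 past the lower one. Upper-quartile scaling shifts log2 ratios by -0.10, which puts this median below 0. Csf2 encodes GM-CSF, which drives alveolar macrophages to clear surfactant, and was at 5.21 RPKM (29 reads) in the tumour-bearing library and 31.2 RPKM (172 reads) in the normal library, 5.99-fold lower (4.02 to 9.21). P2ry2, a receptor through which extracellular ATP stimulates surfactant release, was at 17.3 and 6.997 RPKM in the tumour-bearing and normal library, 2.47-fold higher (1.97 to 3.10). Prkcd, a protein kinase C gene, and Anxa2, an annexin gene, lay within 2-fold, with log2 ratios of 0.52 and 0.39, and Anxa2 was the most abundant, at 330 and 251 RPKM in the tumour-bearing and normal library.

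Of 18 transcription factor genes that act on surfactant genes, 14 were below 0, where 5676 of all 12288 genes and 258 of the 649 abundant genes were. The list had a median of -0.15, 0 past the upper 2-fold line and 1 past the lower one. The gene past the lower line was Etv5, at 162 and 341 RPKM in the tumour-bearing and normal library, 2.11-fold lower (2.02 to 2.20). Cebpa was 1.68-fold lower (1.59 to 1.77), Gata6 1.57-fold lower (1.39 to 1.79) and Foxa1 1.54-fold lower (1.38 to 1.71). Nkx2-1, named outside the rule because its core motif was searched, was at 151 and 165 RPKM in the tumour-bearing and normal library, 1.10-fold lower (1.03 to 1.16). With ratios centred on the other AT2 markers, which adds 0.54 to each log2 ratio, the list median is above 0.

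Of 30 listed relatives of the 10 genes, 23 were in the tables and 19 reached 1 RPKM. Of the 19, 15 were above 0, where 6612 of all 12288 genes and 391 of the 649 abundant genes were. The list had a median of 0.28, 1 past the upper 2-fold line and 0 past the lower one. Ctsk, a cysteine protease gene related to Ctsh, was at 9.77 RPKM (78 reads) in the tumour-bearing library and 2.91 RPKM (23 reads) in the normal library, 3.36-fold higher (2.09 to 5.60). Ctsl, of the same protease family, was at 82.7 and 44.4 RPKM in the tumour-bearing and normal library, 1.86-fold higher (1.66 to 2.09). Lpcat3, which encodes another lysophospholipid acyltransferase, was at 47.6 and 23.9 RPKM in the tumour-bearing and normal library, 1.99-fold higher (1.74 to 2.29), beside Lpcat1 at a ratio below 1. Psap, the saposin precursor gene related to Sftpb, was at 84.6 and 49.9 RPKM in the tumour-bearing and normal library, 1.69-fold higher (1.54 to 1.86). Sfta2, surfactant-associated protein 2, also counted among the AT2 markers, was at 500 and 492 RPKM in the tumour-bearing and normal library, a ratio of 1.02 (0.943 to 1.10). Fibroblast markers summed to 853 and 148 RPKM in the tumour-bearing and normal library, and macrophage markers to 50.5 and 14.99 RPKM. Lcp1 made 50.3 and 82.7 RPKM of the pan-leukocyte sums of 52.0 and 85.5 RPKM, so those sums follow 1 gene. The sort was for CD45-negative cells, and the part of these cell types in the Ctsk and Psap values was not tested.

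**Figure D5:**
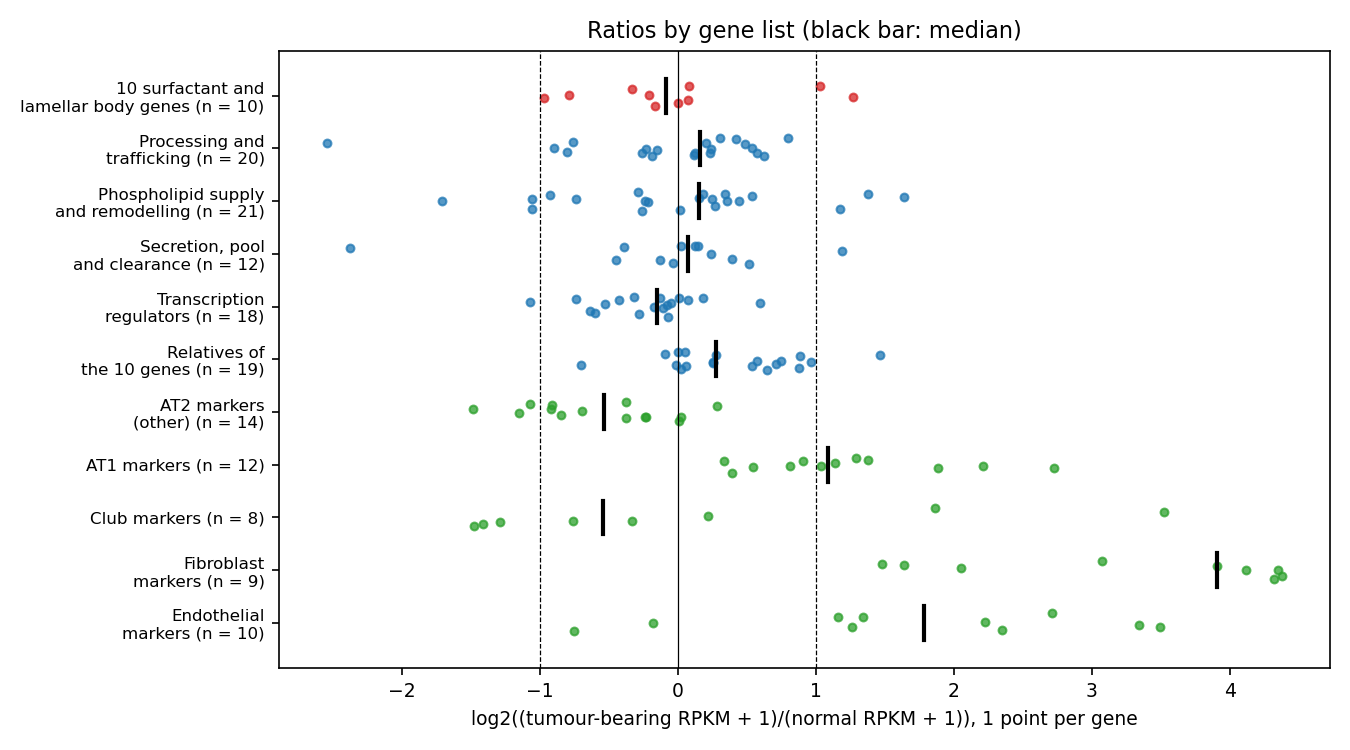
Log2 ratios of tumour-bearing over normal RPKM (1 added to each), 1 point per gene at 1 RPKM or more, for the 10 genes (red), 5 pathway lists (blue) and 5 cell type marker lists (green), with black bars at the medians. The 10 genes have a median of -0.08 and the other AT2 markers one of -0.54, while AT1, fibroblast and endothelial markers lie mostly to the right of 0.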

How the data were processed

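The authors deposited 1 table of RPKM per library, with the GeneID, symbol and description of each gene, per the file headers. Trimmomatic and mm10 are named in the submitters' processing notes, without versions. Not given in the sources used here were the aligner, counter, annotation and strand setting. RNA, per the labels' protocols, was selected with oligo(dT), fragmented, primed at random and amplified by PCR, so reads are not independent molecules. RPKM shares a library total among genes, so the level of Sftpc affects all others.

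RPKM were compared as deposited, a missing row counting as 0. Log2 ratios used a pseudocount of 1 and took in genes that reached 1 RPKM in either library. Whole reads were recovered from the digits of RPKM: the last 150 rows of each table gave the library totals, as genes with 1 read have whole lengths, and the descending row order settled multiples. Reads were recovered for 15098 of 15113 genes (99.9%). For Sftpc, order and totals left 3 multiples, and the largest, at a length of 804 bases, was taken because the recovered reads then come to 99.998% and 99.997% of the totals of the tumour-bearing and normal library. These reads give Clopper-Pearson intervals. A gene was named from a pathway list when it was the most abundant or among the 4 farthest from 0 in log2 ratio that reached 5 RPKM in either library. Of the genes so chosen, 1 is not reported here. Coordinates came from RefSeq (GRCm38.p6, the assembly of mm10), matched by GeneID for 15080 genes. With 1 library per group, no model or test was fitted.

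The 10 genes and the lists were chosen with earlier results of these data known. Recovery and the 2-fold rule were tested on simulated data. Python 3.11.15, pandas 2.3.3 and scipy 1.17.1 were used. Alternatives were 4 scalings, centring on all genes, pseudocounts, size rules, filters and omission of Sftpc, and, added after the data were examined, direct ratios, centring on AT2 markers, a 100 RPKM filter and reads in place of RPKM.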

Additional observations from a re-analysis of the deposited data

How the results depend on the processing

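Each group holds 1 library, so none was left out, and the alternatives show the effect of scaling, pseudocount, size rule and gene choice alone. No paired analysis was possible because there is 1 library per group.

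The median log2 ratio of the 10 genes, -0.08 as deposited, was -0.13 with trimmed-mean scaling, -0.19 with upper-quartile scaling, -0.023 when RPKM were scaled to a fixed sum (TPM), -0.14 both when libraries were scaled to the same sum over other genes and when centred on all genes, 0.45 when centred on the other AT2 markers, and 0.00013 without Sftpc. Trimmed-mean, upper-quartile and same-sum scaling and centring on all genes each left 1 gene (Ctsh) at least 2-fold higher and 1 (Lamp3) at least 2-fold lower, in place of 2 and 0. A 1.5-fold rule gave 2 lower (Sftpc and Lamp3), and a 4-fold rule 0 higher.

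The ratio of summed RPKM of the 4 surfactant protein genes, 0.693 as deposited, was 0.671, 0.644, 0.722 and 0.667 under the 4 scalings in the same order, 0.666 centred on all genes, and 0.783 with reads in place of RPKM. It turned above 1 without Sftpc (1.21, or 1.14 with reads), and was 1.00 when centred on the other AT2 markers. Centring on AT2 markers moved all log2 ratios by 0.54 and upper-quartile scaling moved them by -0.10.

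Of all genes at or over the filter, 1153 were at least 2-fold higher and 802 lower as deposited. With a pseudocount of 5 these were 370 and 190, with a 5 RPKM filter 687 and 419, with a 100 RPKM filter 67 and 43, and centred on the other AT2 markers 3002 and 231. A pseudocount of 0.1 gave 1539 higher and 1247 lower. Pseudocounts moved no call among the 10 genes, whose RPKM are too high for a pseudocount of 5 or less to shift their ratios much.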
